A study of Caenorhabditis elegans with 2 samples.

Results

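The genes described here are 31 components of the Wnt pathway of Caenorhabditis elegans, of 19973 protein-coding nuclear genes in all. They were taken by name, as ligands, secretion factors, receptors, destruction complex members, beta-catenins and nuclear effectors (the rule names genes and uses no signal, though it was drawn up with earlier results of these data known). For each gene, a summit (the point of a peak given by the authors) was counted if it lay in the gene body or up to 2000 bp upstream of the start, a stretch called the gene's window below. The windows of the 31 genes held 84 of the 29975 nuclear summits in the pooled list. The data are chromatin immunoprecipitation and sequencing of CEH-16, the worm engrailed homologue, in whole L3 larvae of mixed sex from strain OP82, which carries unc-119(tm4063) III and the transgene wgIs82, a C-terminal GFP-FLAG fusion of CEH-16. The 2 biological replicates form 1 group, with the same genotype and stage, so no contrast between conditions exists. The deposited lists hold 19150 peaks for replicate 1, 30000 for replicate 2, 30000 for the pooled replicates and 214 that passed the authors' reproducibility threshold (irreproducible discovery rate, IDR). The signal of a peak is the authors' own value on a scale that is not stated, and read counts are not part of the lists, which leaves depth unknown. Whole animals were used, so strong binding in few cells and weak binding in many cannot be told apart.

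Wnt proteins are secreted lipid-modified ligands that bind Frizzled and other receptors on the receiving cell. In the canonical branch the signal passes through Dishevelled and spares beta-catenin from a destruction complex of Axin, APC and kinases, so that beta-catenin can act with the TCF factor POP-1 on its target genes. In the worm a beta-catenin asymmetry branch, in which the kinase LIT-1 and the beta-catenin WRM-1 lower nuclear POP-1 while SYS-1 acts as its coactivator, sets daughter cell fates in asymmetric divisions, including those of the epidermal seam cells, where ceh-16 is known to act.

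Sequences are shown around the 2 thresholded summits of the genes, the strongest summit of lit-1 (the highest found in both replicates among nuclear effectors on the chromosomes whose sequence is shown here), and, added after the values were seen, the strongest summits of a ligand (egl-20) and a beta-catenin (bar-1) and the neighbouring summit of mom-1. Each runs from 60 bases before to 60 bases after the pooled summit on ce11, on the strand of the gene. Capitals mark a searched word found on either strand. The homeodomain words were TAATTA, its variant TAATTG, and the core TAAT that both contain. The TCF word was CTTTGA, and the repeat GAGAGA as well as the word CGCGCA were taken from earlier results of these data. The windows in order are chrX:6296489-6296609 (plus strand), chrX:6296689-6296809 (plus), chrII:8185140-8185260 (minus), chrIII:13720078-13720198 (plus), chrIV:9815749-9815869 (minus) and chrX:7172435-7172555 (minus).
mom-1 intron, strongest summit: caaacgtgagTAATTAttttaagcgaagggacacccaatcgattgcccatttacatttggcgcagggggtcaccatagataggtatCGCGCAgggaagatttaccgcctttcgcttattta
mom-1 intron, neighbouring summit: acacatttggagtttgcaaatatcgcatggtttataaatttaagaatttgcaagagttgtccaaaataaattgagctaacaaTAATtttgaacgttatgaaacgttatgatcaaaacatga
mig-5 upstream: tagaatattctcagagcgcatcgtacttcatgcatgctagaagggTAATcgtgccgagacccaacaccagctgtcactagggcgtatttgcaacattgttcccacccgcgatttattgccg
lit-1 coding sequence: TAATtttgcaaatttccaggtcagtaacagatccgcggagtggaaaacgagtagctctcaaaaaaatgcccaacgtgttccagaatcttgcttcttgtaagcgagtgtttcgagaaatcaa
egl-20 upstream: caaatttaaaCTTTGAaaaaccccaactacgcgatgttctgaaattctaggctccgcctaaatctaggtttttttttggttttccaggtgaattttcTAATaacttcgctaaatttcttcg
bar-1 upstream: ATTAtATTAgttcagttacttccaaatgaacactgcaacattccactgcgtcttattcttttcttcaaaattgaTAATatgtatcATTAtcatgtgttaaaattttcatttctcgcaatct

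Among these 6 windows the full engrailed-type word TAATTA stood in that of the strongest mom-1 summit alone, beginning 50 bases before it, and the same window held CGCGCA beginning 26 bases after it. The mig-5 window held TAAT beginning 15 bases before its summit and none of the longer words. The egl-20 window held CTTTGA beginning 50 bases before the summit. The mig-5 and mom-1 windows at thresholded summits had GC contents of 49.6% and 45.5%, and the neighbouring mom-1 window and the bar-1 window both had 28.1%.

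Most of the Wnt genes had a pooled summit and few a thresholded one, which also held for all genes. A pooled summit lay in the windows of 27 of the 31 genes (87.1%, exact Clopper-Pearson 95% interval for counting only, 70.2 to 96.4), and 72.5% of all protein-coding genes had one. Replicate 1 alone gave 21 genes, against 57.8% of all genes, and replicate 2 alone gave 26, against 72.7%. A thresholded summit lay in the windows of 2 genes, mom-1 and mig-5 (6.45%, interval 0.791 to 21.4), against 1.19% of all genes. A pooled summit with a summit of each replicate within 200 bp lay in 7 windows (22.6%, interval 9.59 to 41.1), against 24.0% of all genes. The strongest 1000 pooled peaks reached 4 of the genes (12.9%, interval 3.63 to 29.8), against 5.15% of all.

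**Figure D1:**
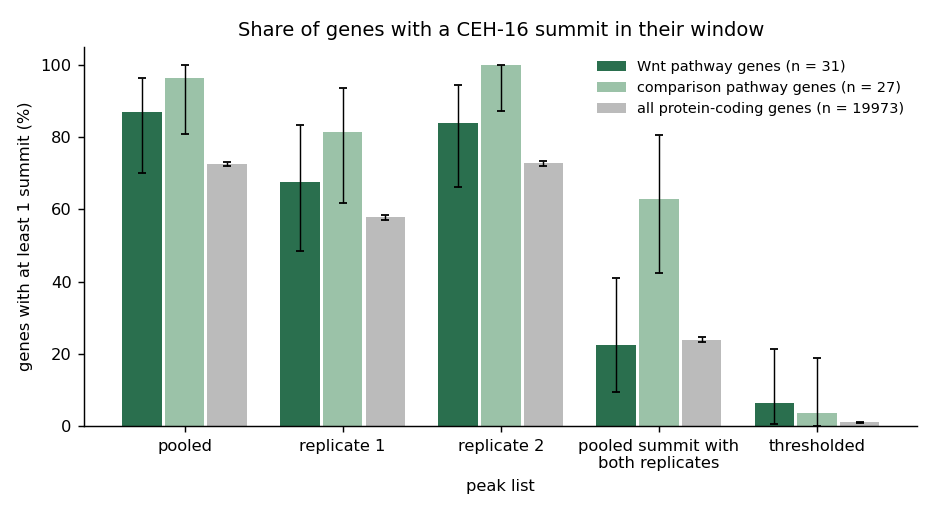
Percentage of genes with at least 1 summit in the gene body or 2000 bp upstream (vertical axis) in each peak list (horizontal axis), for the 31 Wnt genes, 27 further pathway genes fixed for comparison and all 19973 protein-coding genes; bars are shares and whiskers exact 95% Clopper-Pearson intervals that cover counting of genes only. The share with summits in both replicates was 22.6% for the Wnt genes, 63.0% for the comparison genes and 24.0% for all genes.

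Window length moved with these shares. The median window was 6.62 kb for the Wnt genes and 4.03 kb for all genes. The share of all genes with a pooled summit was 56.1% among the 3997 genes with the shortest windows (at most 3.056 kb) and 90.5% among the 3994 with the longest (at least 6.322 kb). The latter included 17 of the 31 Wnt genes, and all 17 had a pooled summit. Among those longest windows, 41.1% of all genes and 5 of the 17 Wnt genes had a summit shared by both replicates. A thresholded summit lay in 1.85% of those windows and in 1 of the 17. The strongest 1000 pooled peaks reached 9.19% and 2 of the 17. In the class of 4.491 to 6.321 kb, with 12 Wnt genes, the thresholded list reached 1.05% of all genes and 1 Wnt gene. The strongest 1000 reached 5.18% and 2 Wnt genes there. Per unit length, the Wnt windows held 0.347 pooled summits per kb (exact Poisson 95% interval 0.277 to 0.430) and all windows 0.303. In the replicate 1 list the densities were 0.198 and 0.197 per kb, and in the replicate 2 list 0.326 and 0.302.

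Most pooled signals at the Wnt genes were low. The median signal was 14.97 over the 84 summits, from 11.53 to 111.2, and 15.1 over all nuclear pooled summits. The strongest pooled signal per gene had a median of 16.9 over the 27 Wnt genes and 17.1 over the 14484 genes with a summit, and 13 of the 27 lay above the latter. The lowest signal in the thresholded list was 43.6, and the Wnt gene next below it was unc-37 at 32.99.

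**Figure D2:**
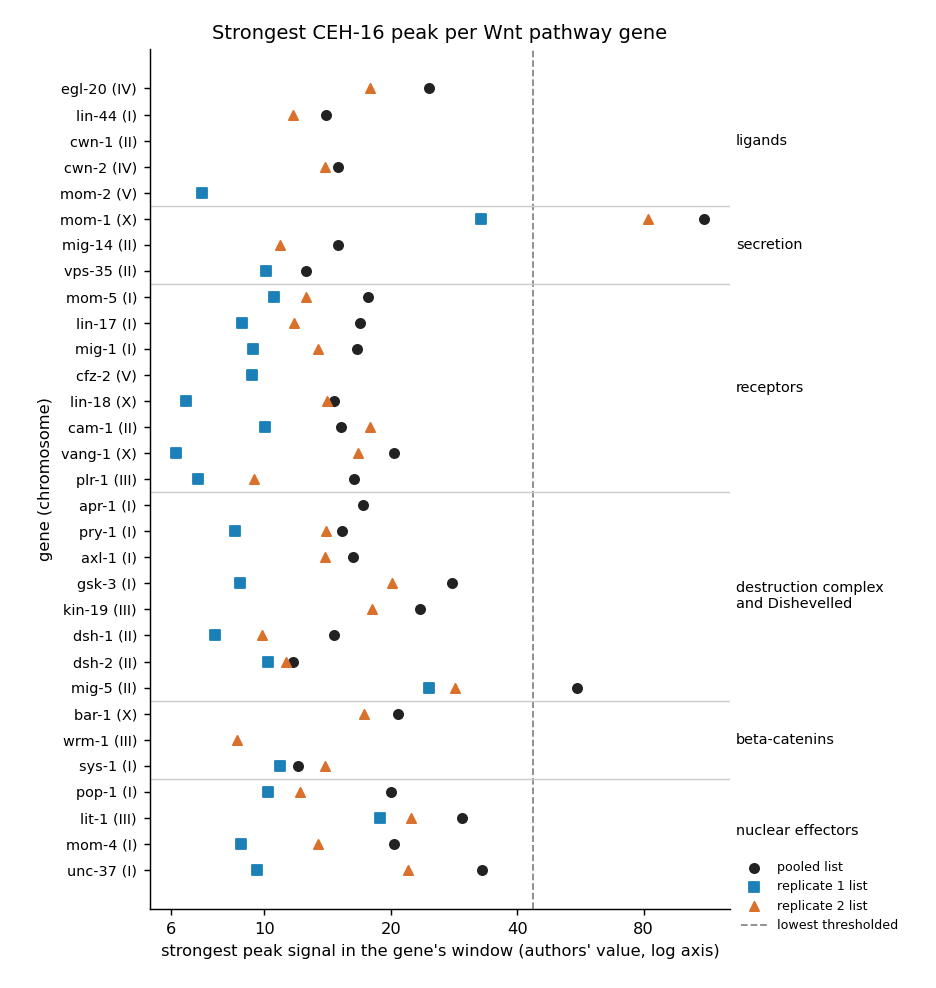
Strongest peak signal in each gene's window (horizontal axis, log scale, the authors' value) in the pooled list (black circles), replicate 1 (blue squares) and replicate 2 (orange triangles), for the 31 genes (vertical axis) by role; a missing symbol means no summit in that list, and the dashed line is the lowest thresholded signal, 43.6, which applies to pooled values. The pooled values of mom-1 (111.2) and mig-5 (55.42) lie to the right of the line and those of the other 25 genes with a pooled summit to its left.

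None of the 5 ligand genes had a summit found in both replicates, against 24.0% of all genes, a share that would be about 1 gene of 5. The windows of egl-20, lin-44, cwn-1, cwn-2 and mom-2, which encode the Wnt proteins of the worm, held 4 pooled summits in 23.7 kb (0.169 per kb, against 0.303 for all windows). The strongest was at egl-20, 277 bp upstream of its start (chrIV:9815634-9815983), where the pooled signal was 24.67 (rank 2099) and that of replicate 2 was 17.89 (rank 1982). Replicate 1 had no summit in the egl-20 window. A further egl-20 summit in the 3' UTR, also 1878 bp from the start of dct-15, reached 22.54 in the pooled list and 17.44 in replicate 2, and it too was absent from replicate 1. The strongest pooled signals of cwn-2 and lin-44 were 15.02 and 14.05, both in introns. No list held a summit for cwn-1, and mom-2 had a replicate 1 summit of 7.11 in its coding sequence and none in the other lists.

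Among secretion genes, mom-1 carried the strongest peak of the whole set and its partners did not stand out. The gene mom-1 encodes the worm Porcupine, the acyltransferase that lipid-modifies Wnt proteins in the producing cell. Its thresholded peak (chrX:6296374-6296723) has its summit 3437 bp inside the gene, in an intron, and its signal was 111.2 pooled (rank 30), 32.83 for replicate 1 (rank 59) and 81.76 for replicate 2 (rank 24). The replicate summits lay 58 bp and 57 bp from the pooled summit, and the replicate 2 summit fell in the coding sequence next to that intron. A neighbouring pooled summit further into the intron had a signal of 30.3 (rank 853), with 47.73 in replicate 2. Replicate 1 has 1 summit there, which matches both pooled summits, so the pair is not separated in that replicate. Both summits lay in no other protein-coding gene's window, and the nearest start to the stronger was that of cest-16, 3393 bp away.

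Upstream of mom-1, a summit of 28.83 (rank 1065) was at the same base in both replicates, at 8.207 in replicate 1 and 14.42 in replicate 2. It lay inside a tRNA gene (WBGene00023133), 777 bp from the mom-1 start and 603 bp upstream of the start of lev-9 on the other strand, so it belongs to no one gene by position. The fourth mom-1 summit, at 15.51, lay 43 bp upstream of lev-9. The gene mig-14 encodes the Wntless carrier that escorts Wnt proteins to the surface, and its strongest pooled signal was 14.94, with a summit in replicate 2 and none in replicate 1. The retromer gene vps-35, needed to recycle MIG-14, had a summit of 12.56 that lay inside the neighbouring gene F59G1.8 and was in replicate 1 and not in replicate 2.

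The receptor genes had weak peaks at a density close to that of all windows. Their 8 windows held 24 pooled summits (0.333 per kb, against 0.303). None had a summit of both replicates within 200 bp, against 24.0% of all genes and 41.1% of those with the longest windows. The windows of cfz-2 and lin-18 were shorter, in the class of 4.491 to 6.321 kb, where the share was 26.3%. All 8 windows held a replicate 1 summit and 7 held a replicate 2 summit, against 57.8% and 72.7% of all genes. Among genes with the longest windows those shares were 81.1% and 91%, and in the class of 4.491 to 6.321 kb 64.8% and 80.2%. The planar polarity gene vang-1 was highest, at 20.33 in an intron (chrX:2889419-2889768, rank 5018) with 16.74 in replicate 2, and the nearest start was that of B0410.3, 1897 bp away. The number of receptor genes with a shared summit was 4 with a match within 500 bp, against 29.2% of all genes. With an upstream reach of 5000 bp it was 1, against 34.8%. The replicate 1 summit of vang-1 elsewhere in the window had a signal of 6.169. The Frizzled genes mom-5, lin-17 and mig-1 had strongest pooled signals of 17.69, 16.92 and 16.6, and the Frizzled gene cfz-2 had no pooled summit and a replicate 1 summit of 9.364. The Ror receptor gene cam-1 held 8 pooled summits over 16.4 kb, the highest at 15.23, of which 4 were in neither replicate list. The Ryk receptor gene lin-18 reached 14.69 and plr-1, which encodes a membrane ubiquitin ligase that lowers surface Frizzled, reached 16.33.

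In the destruction complex and Dishevelled group, mig-5 had the second thresholded peak. The gene mig-5 encodes a Dishevelled protein. Its peak (chrII:8185025-8185374) has its summit 177 bp upstream of the start, and its signal was 55.42 pooled (rank 109), 24.73 for replicate 1 (rank 129) and 28.38 for replicate 2 (rank 233). The replicate summits lay 5 bp and 1 bp from the pooled one. The same summit lay 243 bp upstream of cct-1, a chaperonin subunit gene transcribed away from mig-5, so the peak stands between the starts of both genes. The list made of the 214 strongest replicate 2 peaks, with replicate 1 left out, would not hold it, and there mom-1 is the Wnt gene that remains. The other Dishevelled genes were low in the pooled list, dsh-1 at 14.69 and dsh-2 at 11.69. The dsh-2 window held 4 replicate 1 summits, the strongest at 10.22 (rank 3962), and 1 of replicate 2 at 11.28. The dsh-1 window held 2 summits of each replicate, the strongest at 7.627 in replicate 1 and 9.851 in replicate 2.

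The glycogen synthase kinase gene gsk-3 had a pair of summits shared by both replicates. One in its 3' UTR (chrI:12825368-12825717) reached 27.93 pooled (rank 1218), 6.634 for replicate 1 and 20.09 for replicate 2, and it lay 121 bp upstream of nhx-8. The other, 903 bp upstream of gsk-3 itself, had 15.99, 7.844 and 11.38 in the same order. The casein kinase gene kin-19 reached 23.54 in its 3' UTR (chrIII:4084580-4084929), with 18.09 in replicate 2 and no replicate 1 summit. The Axin genes pry-1 and axl-1 had 15.28 and 16.24. Each had a replicate 2 summit within 200 bp of that pooled summit and no replicate 1 summit so near. A replicate 1 summit of 8.536 lay elsewhere in the pry-1 window, and none lay in that of axl-1. The APC-related gene apr-1 had 3 pooled summits of at most 17.18, and no summit of either replicate lay in its window. The highest of the 3 lay inside the neighbouring gene K04G2.7.

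None of the 3 beta-catenin genes had a summit shared by the replicates within 200 bp, a number too small to read against the 24.0% of all genes. A match within 500 bp gave 1 (sys-1), where 29.2% of all genes had one. An upstream reach of 5000 bp gave 1 (bar-1), where 34.8% of all genes did. The canonical beta-catenin gene bar-1 had 4 pooled summits, the strongest 1870 bp upstream (chrX:7172320-7172669) at 20.87, with 17.24 in replicate 2, and its window held no replicate 1 summit. The others were at 16.5, 15.0 and 12.77. The gene sys-1, which encodes the POP-1 coactivator, had 3 weak pooled summits, the highest at 12. A thresholded peak (chrI:9979743-9980092, signal 54.87, rank 112) overlaps the last bases of sys-1, but its summit lay 145 bp outside the sys-1 window and 256 bp upstream of eif-3.C, a translation initiation factor gene. It had 13.51 in replicate 1 and 40.77 in replicate 2. The gene wrm-1, which encodes the beta-catenin that acts with LIT-1, had no pooled summit and a replicate 2 summit of 8.593.

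All 4 nuclear effector genes had a summit found in both replicates within 200 bp, against 24.0% of all genes and 41.1% of those with the longest windows. The unc-37 window was shorter, in the class of 4.491 to 6.321 kb, where the share was 26.3%. In the other roles the count was 2 of 8 for the destruction complex and Dishevelled, 1 of 3 for secretion, 0 of 5 for ligands, 0 of 8 for receptors and 0 of 3 for beta-catenins. These counts were the same with a match within 100 bp, where the share of all genes was lower, at 17%. With a match within 500 bp they were 4 for the destruction complex and Dishevelled, 4 for receptors (cam-1, lin-17, mom-5 and plr-1) and 1 for beta-catenins. The share of all genes in that setting was 29.2%. With an upstream reach of 5000 bp they were 5 for the destruction complex and Dishevelled, 1 for receptors (vang-1) and 1 for beta-catenins. There 34.8% of all genes had a shared summit. With the gene body alone the effector count was 2 (lit-1 and mom-4), against 12.5% of all genes. The effector windows were 24.4 kb for lit-1, 10.1 kb for pop-1, 7.13 kb for mom-4 and 5.03 kb for unc-37, and the difference between roles was not tested. The 4 genes held 26 pooled summits in 46.6 kb (0.557 per kb), 14 of them at lit-1, and 8 of the 26 were in both replicates. The Groucho corepressor gene unc-37 was highest at 32.99 (chrI:6746418-6746767, rank 577), with 9.607 in replicate 1 and 22.02 in replicate 2. Its summit lay 1264 bp upstream of unc-37, inside the neighbouring gene fnci-1. The TCF gene pop-1 had a summit 197 bp upstream of its start (chrI:2830333-2830682) at 20.04 (rank 5329), with 8.217 and 11.09 in replicates 1 and 2, and 6 weaker summits in its window. The gene mom-4, which encodes a TAK1-type kinase upstream of LIT-1, had an intronic summit of 20.31 (chrI:9899974-9900323), with 8.824 and 11.23. That summit also lay 927 bp upstream of lsl-1.

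The Nemo-like kinase gene lit-1 is the longest of the 31, with a window of 24.4 kb. Its strongest pooled summit (chrIII:13719963-13720312) lay 18147 bp inside the gene, in coding sequence, at 29.55 (rank 961), with 18.88 in replicate 1 at 172 bp and 15.19 in replicate 2 at 62 bp. The nearest start was that of W06F12.2, 11551 bp away. Those replicate summits lay on either side of the pooled one, at 18319 bp and 18085 bp. The strongest replicate 2 summit in the window was another, 22.36 at 17886 bp. Of its 14 pooled summits 5 were in both replicates within 200 bp, and both replicate lists held 13 summits in the window. The 5 shared summits were all inside the gene. Those at 439 bp and 12335 bp matched both replicates within 100 bp, and those at 14615 bp, 17007 bp and 18147 bp did not. A summit 1147 bp upstream, at 20.52, was in replicate 1 (12.98) and not in replicate 2.

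**Figure D3:**
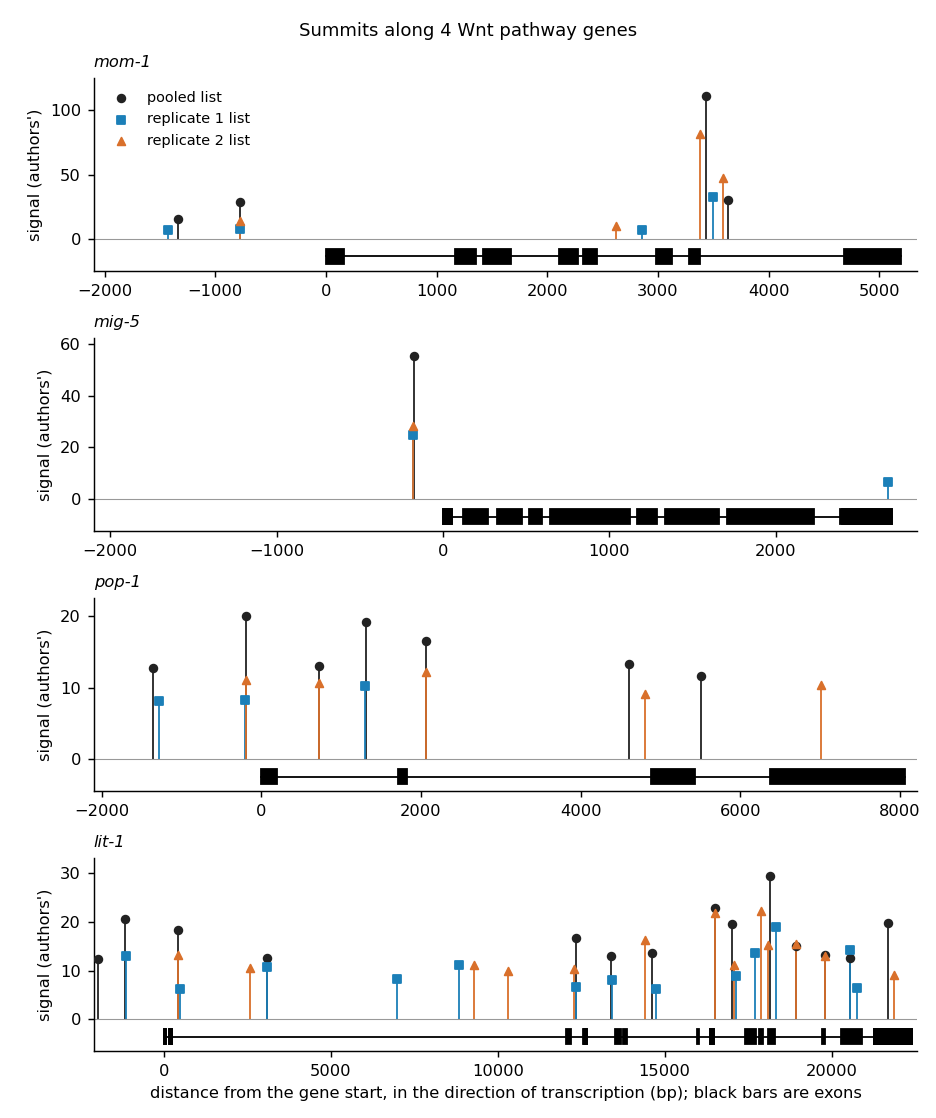
Summit signal (vertical axis, the authors' value) against distance from the gene start in bp, in the direction of transcription (horizontal axis), for mom-1, mig-5, pop-1 and lit-1 in the pooled list (black circles), replicate 1 (blue squares) and replicate 2 (orange triangles); black bars are exons of all annotated transcripts. At mom-1 the strongest summits of all 3 lists gather around 3437 bp, at mig-5 they coincide 177 bp upstream, and at lit-1 summits spread along the gene with the highest pooled one at 18147 bp.

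Across the set, agreement between replicates was low and close to that of the whole list. Of the 84 pooled summits, 14 had a summit of both replicates within 200 bp (16.7%, interval 9.42 to 26.4), 35 of replicate 2 only, 17 of replicate 1 only and 18 of neither. For all nuclear pooled summits the shares were 19.3% both, 48.1% replicate 2 only, 17.6% replicate 1 only and 15.0% neither. The strongest pooled summit of a gene was in both replicates for 7 genes, in replicate 2 only for 14, in replicate 1 only for 3 and in neither for 3. The replicate 1 list is shorter than the replicate 2 list, and the part of list length in these shares was not tested.

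By position, 44 of the 84 summits were in introns, 23 upstream, 11 in coding sequence, 5 in 3' UTRs and 1 in a 5' UTR. Introns held 52.4% of the Wnt summits and 33.9% of those in the windows of all genes, where a summit counts once for each window it is in. Per unit length the intron densities were 0.405 and 0.310 per kb, and the upstream densities 0.371 and 0.346 per kb. Coding sequence was low in both, at 0.197 and 0.206 per kb. Of the 84 summits, 15 also lay in the window of another protein-coding gene, and 59 had the Wnt gene's own start as the nearest.

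**Figure D4:**
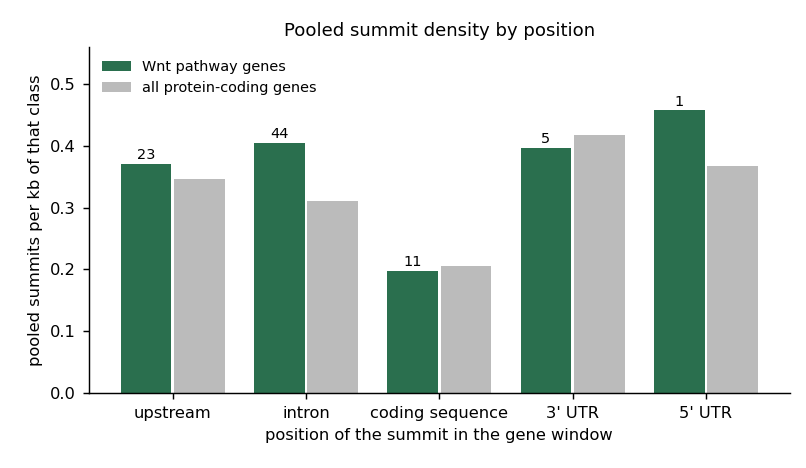
Pooled summits per kb of sequence of each class (vertical axis) by position in the gene window (horizontal axis), for the Wnt genes (green, with the number of summits above each bar) and all protein-coding genes (grey); there are no replicates for these bars. Introns stood at 0.405 and 0.310 per kb and coding sequence at 0.197 and 0.206 per kb.

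The share of all pooled summits with each searched word lay inside the counting interval of the share at Wnt summits. Within 50 bp of the summit, TAATTA was at 4 of 84 (4.76%, interval 1.31 to 11.7) and at 5.24% of all nuclear pooled summits. TAATTG was at 6 (7.14%) against 9.17%, and the shorter TAAT at 56 (66.7%) against 66.4%. The TCF word CTTTGA was at 6 (7.14%) against 8.08%, GAGAGA at 4 (4.76%) against 6.73% and CGCGCA at 3 (3.57%) against 1.75%. At the 189 nuclear thresholded summits, TAATTA was at 2.65%, TAATTG at 9.52%, TAAT at 42.3% and CTTTGA at 2.12%. GAGAGA was at 21.2% of them and CGCGCA at 15.9%. Besides mom-1, TAATTA was at weak summits of pop-1 (13.07), lin-18 (12.66) and sys-1 (12). The TCF word stood at the strongest summits of unc-37, egl-20 and dsh-2 and at weaker ones of lit-1 and sys-1. Median GC content in these windows was 32.7% at Wnt summits, 33.7% at all pooled summits and 46.5% at the 189 nuclear thresholded summits. A word match is a description of the sequence and not a binding site.

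Further genes of the pathway, 15 components and cofactors and 12 targets or genes downstream, shared summits between replicates more often by count. A pooled summit lay in 26 of the 27 windows, the exception being elt-6, against 72.5% of all genes. A summit with both replicates lay in 17 (63.0%, interval 42.4 to 80.6), in 11 of the components and 6 of the targets. For comparison, 7 of the 31 Wnt genes and 24.0% of all genes had one, and the difference was not tested. The median windows of the comparison and Wnt genes were 5.85 kb and 6.62 kb. Of the 27 comparison windows 12 were in the longest class, 8 in that of 4.491 to 6.321 kb and the rest were shorter. In those 2 classes 90.5% and 79.9% of all genes had a pooled summit, and 41.1% and 26.3% a shared one. The strongest of the comparison genes were tlp-1, a zinc-finger gene, at 61.7 (thresholded, 234 bp upstream), the junctional beta-catenin gene hmp-2 at 37.27 (rank 379), and the AP2 adaptor gene dpy-23 at 32.13 (rank 657). The hmp-2 summit lay 1397 bp upstream of that gene and 217 bp from the start of K05C4.7, whose window also holds it. The endoderm GATA gene end-3 (31.74, a summit also in the window of ddx-17) and the acetyltransferase gene cbp-1 (31.63) came next. The 3 shared summits of cbp-1 rest on 2 replicate 1 summits, since a pair of them match the same one. Among the Hox genes lin-39 reached 26.43, mab-5 22.34 and egl-5 14.57.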

How the data were processed

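The data are the ce11 peak lists of CEH-16 ChIP-seq in 1 group with 2 biological replicates, numbered as the labels number them. Sonication fragmented the DNA, per the labels. The notes that accompany the deposited lists derive the pooled one from both alignments plus 1 more file, and the thresholded one from the pooled and single-replicate lists. Aligner and peak caller: not given in the sources used here. Each deposited signal value is the authors' own, with no stated scale, and was used to describe and rank peaks within a list. The thresholded list is the 214 strongest pooled peaks. The lists on ce10 were not used.

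Coordinates are 1-based. Genes came from Ensembl release 115 (WBcel235) and bases from the RefSeq WBcel235 genome, which are the ce11 assembly. All 31 names matched. A summit could count for several overlapping windows. Position classes took coding sequence first, then UTRs, then introns. Words were searched on both strands in 101 bp. Exact intervals cover counting only. Counting and matching were checked on simulated data. Members, lists and words were chosen with earlier results of these data known, so no test was run on them. All members are named. Full values are given for genes with a thresholded summit and the 10 of highest pooled signal. Tools were Python 3.11.15 with pandas 2.3.3, numpy 2.4.6, matplotlib 3.10.9 and scipy 1.17.1.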

Additional observations from a re-analysis of the deposited data

How the results depend on the processing

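Of 38 alternative values for the 5 counts and shares, 23 stayed near the reported value (counts within 1.5 times, densities and shares inside their counting interval) and 15 moved. With the gene body alone, 1 gene (mom-1) had a thresholded summit, against 0.29% of all genes, and 4 had a replicated one, against 12.5%. With each summit given to the nearest start, 1 gene (mig-5) had a thresholded summit, against 0.716% of all genes. The density was then 0.244 per kb, against 0.202 for all genes. A replicated summit was at 7 genes in the main setting, against 24.0% of all genes. An upstream reach of 5000 bp gave 12, and the share of all genes rose to 34.8%. A match within 500 bp gave 14, against 29.2% of all genes, and 27.4% of summits (27.3% of all nuclear pooled summits). The strongest 5000 pooled peaks reached 8 genes, against 21.1% of all genes, at 0.0537 per kb, against 0.0525. Of the Wnt summits among them 53.8% were replicated, against 61.7% of all. The strongest 1000 reached 4 genes, against 5.15% of all genes, and the thresholded peaks above their median signal reached 1, against 0.476%. With a replicate left out, the number of genes with a thresholded summit ran from 1 to 2, against 1.1% of all genes either way. The density ran from 0.198 to 0.326 per kb, and that of all genes from 0.197 to 0.302. Without replicate 1 the gene was mom-1. These settings themselves add or remove peaks, sequence or matches, and any further cause was not tested. Without read counts, what depth limits was not examined.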
